A study of Homo sapiens with 24 samples.

Results

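The 10 genes described here encode 3 Notch receptors (NOTCH1, NOTCH2 and NOTCH3), 3 of their ligands (JAG1, JAG2 and DLL1) and 4 genes that Notch signalling is known to switch on (HES1, HEY1, HEY2 and NRARP). They were taken by gene name from the 57820 genes of each count file, and 11 rows carried these names, because a second, short gene model inside JAG1 shares its symbol. Notch receptors are single-pass proteins that are bound by ligands on the neighbouring cell, cut by ADAM proteases and gamma-secretase, and release an intracellular part that joins the DNA-binding protein RBPJ in the nucleus. In squamous epithelium, the tissue from which these tumours arise, Notch signalling is best known for driving differentiation. The HES and HEY proteins are transcriptional repressors, and NRARP is a small ankyrin-repeat protein that dampens Notch signalling in turn.

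RNA was sequenced from the head and neck squamous cell carcinoma lines SAS and Cal33, both labelled as wild type and from the tongue. Each line had 4 groups of 3 replicates, all taken at 24 h: sham, 4.5 µM GSK-J1, a single 4 Gy dose of X-rays, and GSK-J1 with 4 Gy. GSK-J1 inhibits the histone H3K27 demethylases UTX and JMJD3, which KDM6A and KDM6B encode, and the study describes Cal33 as sensitive and SAS as resistant to the compound. Each line is 1 cell line, so a difference between them is one between 2 cultures and not between classes of tumour. The sources do not state that replicates were separate cultures, so the p-values measure the spread between these samples, which may be technical. Libraries held 54200036 to 96848227 counts on the strand of the gene. Replicates 1 of SAS GSK-J1 and of SAS GSK-J1 with 4 Gy held transcripts of 20 genes that Cal33 expresses at 1.56% and 0.766% of their Cal33 level, while the remaining 4 SAS libraries with GSK-J1 reached 0.00574% at most. These genes had at least 10 CPM in every Cal33 library and at most 6 counts over the 6 SAS libraries without GSK-J1. Results of the 10 Notch genes whose call changes without these 2 libraries are given both ways. Of 8 squamous epithelium markers, all were tested in both lines, with a summed level of 2715 to 4178 CPM (counts scaled by TMM to a common library size) in SAS and 6010 to 9285 in Cal33. The markers of endothelium summed to at most 99.0 CPM, of fibroblasts and mural cells to at most 44.1 and of leukocytes to at most 24.4, with the B cell marker MS4A1 at 0 in all libraries. The endothelial receptor gene KDR, at most 1 count, and the T cell gene CD3E, at most 6, were near 0. The endothelial list as a whole was not. PECAM1 was not among the genes counted, and the other 4 genes summed to 7.42 to 99.0 CPM in unirradiated SAS cells.

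RBPJ binds DNA at a site whose core reads TGGGAA, and the promoters of the target genes are shown because NRARP was called lower after irradiation in both lines, HEY2 in Cal33 and HES1 in neither. The sequences are from RefSeq (GRCh38.p14) and cover the 250 bases before the annotated start, at chr3:194135898-194136147 on the plus strand for HES1, chr6:125749382-125749631 on the plus strand for HEY2 and chr9:137302272-137302521 on the minus strand for NRARP. Capitals mark TGGGAA or its complement TTCCCA.
HES1: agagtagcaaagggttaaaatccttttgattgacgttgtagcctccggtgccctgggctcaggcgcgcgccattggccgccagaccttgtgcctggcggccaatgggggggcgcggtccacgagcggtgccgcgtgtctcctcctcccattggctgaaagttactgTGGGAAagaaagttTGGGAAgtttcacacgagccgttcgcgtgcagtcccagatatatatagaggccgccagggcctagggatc
HEY2: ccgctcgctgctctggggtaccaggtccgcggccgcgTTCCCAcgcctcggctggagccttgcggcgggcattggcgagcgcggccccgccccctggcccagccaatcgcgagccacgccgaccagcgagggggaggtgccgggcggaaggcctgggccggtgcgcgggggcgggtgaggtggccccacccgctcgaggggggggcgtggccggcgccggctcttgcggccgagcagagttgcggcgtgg
NRARP: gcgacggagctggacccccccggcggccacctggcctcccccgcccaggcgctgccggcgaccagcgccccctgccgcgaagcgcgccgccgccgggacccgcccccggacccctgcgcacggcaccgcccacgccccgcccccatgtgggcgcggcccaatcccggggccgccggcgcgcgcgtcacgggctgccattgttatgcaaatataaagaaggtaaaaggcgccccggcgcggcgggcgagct
The HES1 promoter held 2 cores in the same direction, starting at -84 and -70 from the start and 8 bases apart, HEY2 held 1 core on the opposite strand at -213, and NRARP held none in this window. Of the 8 members with a promoter in the table, these 2 had the core and the other 6 did not. Of 35116 promoter stretches of the same length, 20.8% held at least 1 core on either strand and 2.9% held 2 or more. A match describes letters and does not show binding.

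In sham-treated cells, none of the 3 receptors was called between the lines, while 2 of the 3 ligands were lower in Cal33. Of the 24597 genes tested, 54.5% were called (27.2% lower in Cal33), and the libraries of 57.6% did not overlap. The 3 receptors lie on chromosome 9 from 139388896 to 139440314 (NOTCH1), chromosome 1 from 120454176 to 120612240 (NOTCH2) and chromosome 19 from 15270444 to 15311792 (NOTCH3) of hs37d5, the build of the files. Levels between genes were compared as CPM per kb of exon. NOTCH3 was the most abundant receptor on this scale, at 48.2 ± 14.9 (SD, n = 3) in SAS and 37.8 ± 13.0 in Cal33, followed by NOTCH1 at 21.4 ± 3.70 and 18.5 ± 5.87, and NOTCH2 at 9.53 ± 0.479 and 8.15 ± 0.898. NOTCH2 reads can also come from its near-identical copies of the NOTCH2NL family, so its level is uncertain. Between the lines, the log2 fold change of Cal33 against SAS was -0.21 for NOTCH1 (95% confidence interval -0.60 to 0.18), -0.23 for NOTCH2 (-0.46 to 0.01) and -0.35 for NOTCH3 (-0.91 to 0.21). None of the 3 passed edgeR's quasi-likelihood test (lowest adjusted p = 0.103). NOTCH1 was called lower in Cal33 without Cal33 sham replicate 1 (log2 fold change -0.50, edgeR adjusted p = 0.0206) and NOTCH2 without Cal33 sham replicate 3 (-0.32, adjusted p = 0.0388).

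Of the ligands, JAG2 was the most abundant in SAS and JAG1 in Cal33. JAG2, on chromosome 14 from 105607318 to 105635161, encodes a ligand of the Jagged type and had 553, 671 and 749 CPM in the SAS sham libraries and 224, 168 and 191 CPM in those of Cal33. All 3 SAS libraries lay above all 3 of Cal33, and the message was 3.39-fold lower in Cal33 (log2 fold change -1.76, standard error 0.14, edgeR adjusted p = 5.18e-10). DLL1, a ligand of the Delta type on chromosome 6 from 170591294 to 170599561, had 163, 151 and 179 CPM in SAS and 102, 67.4 and 83.6 CPM in Cal33. Its libraries did not overlap either, and the message was 1.95-fold lower in Cal33 (log2 fold change -0.96, standard error 0.20, edgeR adjusted p = 0.000257). JAG1, on chromosome 20 from 10618332 to 10654694, had 357, 253 and 150.2 CPM in SAS and 385, 283 and 252 CPM in Cal33. Its libraries overlapped and it was not called (log2 fold change 0.28, 95% confidence interval -0.27 to 0.83). The short JAG1 model lies within it from 10625847 to 10627014 on the same strand and held 4 to 47 counts per library, so its reads cannot be told from those of JAG1, and it was left out of the counts of members.

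Taken as shares of the summed CPM per kb of the 3 ligands, JAG2 made up 52.7 ± 7.60% in SAS sham (SD, n = 3), DLL1 26.5 ± 1.93% and JAG1 20.7 ± 8.54%. In Cal33 sham, JAG1 made up 46.0 ± 3.85%, JAG2 28.9 ± 1.95% and DLL1 25.1 ± 2.22%. The share of DLL1 was thus close in both lines, while those of JAG1 and JAG2 changed places. The sum of the ligands was 194.9 ± 2.36 CPM per kb in SAS and 106 ± 19.7 in Cal33. These shares describe the same 3 messages and were not tested.

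**Figure D1:**
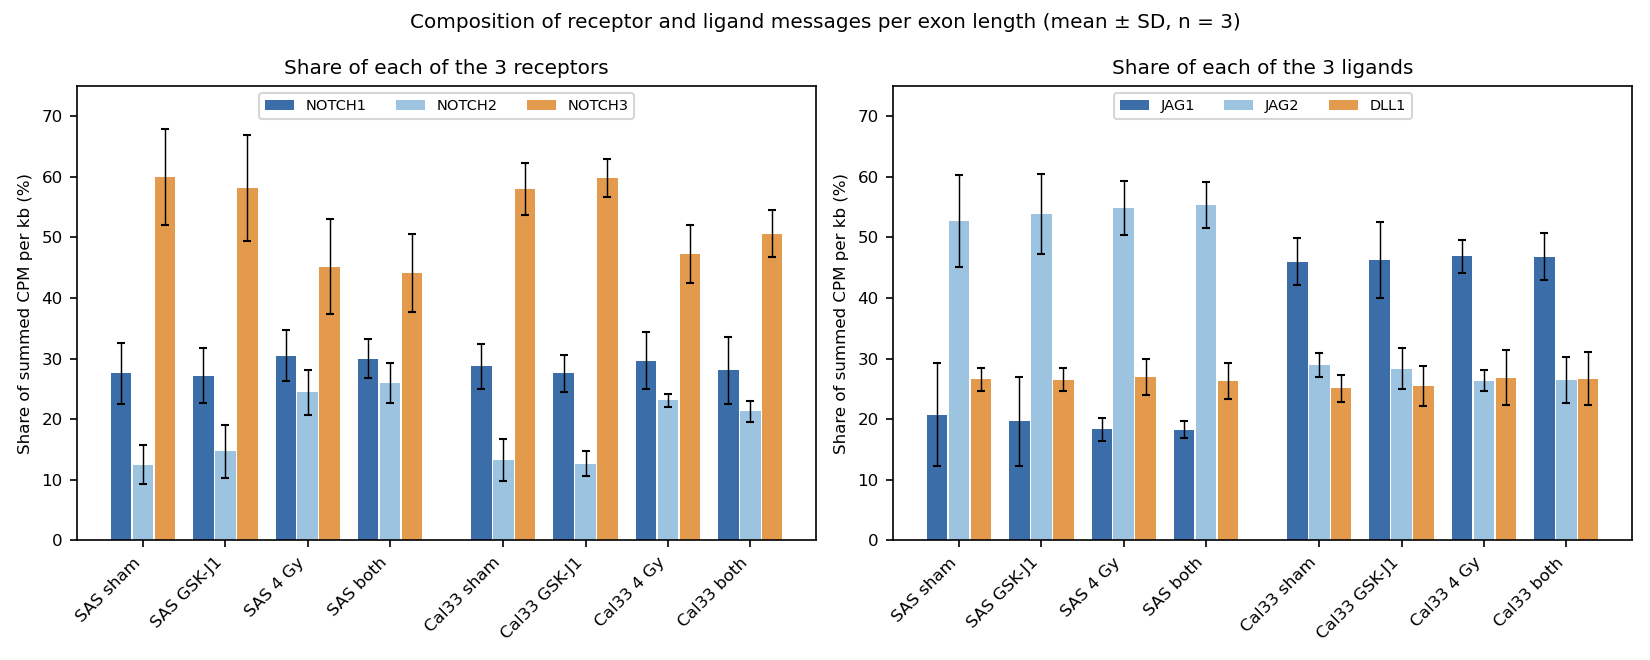
Share of each gene in the summed CPM per kb of exon of the 3 receptors (left) and the 3 ligands (right), in percent, for the 4 treatments of both lines; "both" is GSK-J1 with 4 Gy. Bars are means and error bars the SD of 3 replicates. JAG2 leads in SAS (52.7% in sham) and JAG1 in Cal33 (46.0%) under all 4 treatments. The mean share of NOTCH3 is lower in the irradiated groups of both lines.

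Among the target genes, HEY1 and HEY2 were higher in Cal33, and HES1 and NRARP were not called. HES1, on chromosome 3 from 193853934 to 193856521, had 70.4, 55.5 and 59.2 CPM in SAS and 87.6, 49.7 and 70.5 CPM in Cal33 (log2 fold change 0.17, 95% confidence interval -0.28 to 0.61). NRARP, on chromosome 9 from 140194083 to 140196703, had 91.9, 92.0 and 79.8 CPM in SAS and 110.2, 77.9 and 90.6 CPM in Cal33 (0.08, -0.18 to 0.33). The libraries of both genes overlapped between the lines. HEY1, on chromosome 8, had 43, 26 and 44 counts in SAS and 584, 278 and 299 in Cal33, or 0.688, 0.415 and 0.483 CPM against 7.73, 4.02 and 3.05 CPM. The lines did not overlap, and HEY1 was 9.32-fold higher in Cal33 (log2 fold change 3.22, standard error 0.39, edgeR adjusted p = 4.15e-07). HEY2, on chromosome 6 from 126068810 to 126082415, was the least abundant member, with 21, 7 and 9 counts in SAS and 62, 52 and 56 in Cal33. It was 3.98-fold higher in Cal33, without overlap (log2 fold change 1.99, standard error 0.42, edgeR adjusted p = 0.000396). Per kb of exon, HEY1 stood at 0.164 ± 0.0440 CPM in SAS and 1.53 ± 0.765 in Cal33, against 29.9 ± 3.77 and 33.6 ± 9.21 for HES1. In all, 4 of the 10 members were called between the lines, where 54.5% of the 24597 genes tested were (27.2% each way), and the libraries of the same 4 were apart, where those of 57.6% of genes were. Between the lines a call was thus common, and the median log2 fold change of the members was -0.07 beside 0.02 over all genes. The 4 calls were made in all 14 alternative analyses of this comparison.

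**Figure D2:**
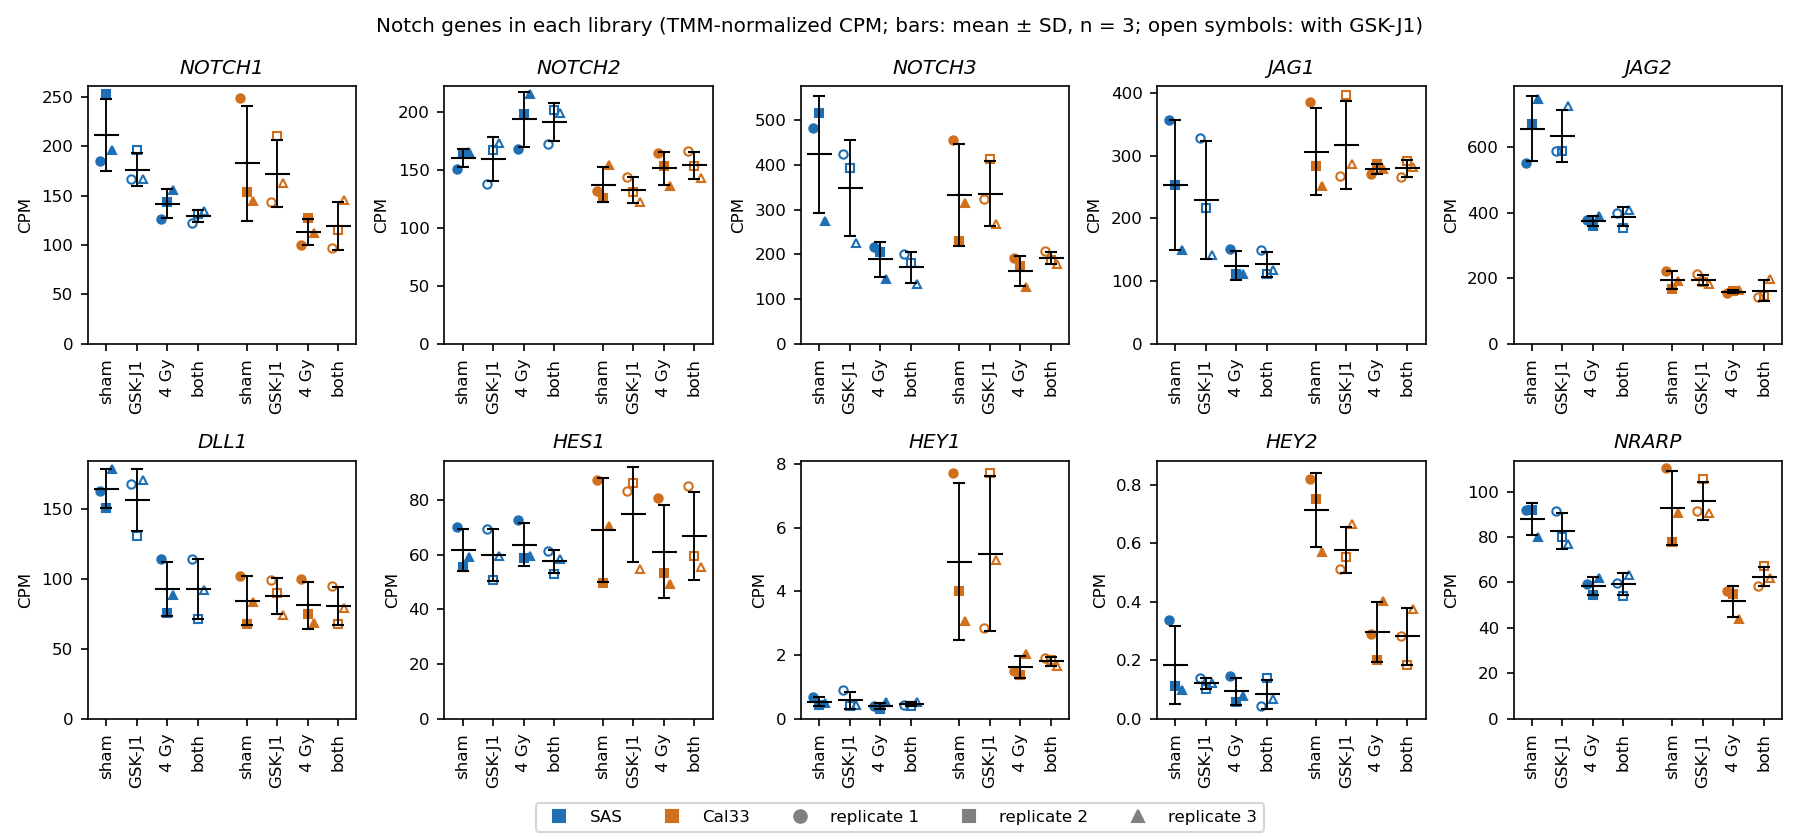
TMM-normalized CPM (vertical axes, linear, from 0) of the 10 Notch genes in the 24 libraries, by line and treatment; "both" is GSK-J1 with 4 Gy. Symbols are libraries, with 1 shape for each replicate number and open symbols for groups with GSK-J1, and bars are mean ± SD (n = 3). JAG2 is higher in SAS (553 to 749 CPM in sham) than in Cal33 (168 to 224), and NRARP and NOTCH3 are lower in the irradiated groups of both lines.

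Irradiation lowered 6 of the 10 Notch genes in SAS and 5 in Cal33. The effect of 4 Gy was taken from the irradiated against the unirradiated groups, averaged over GSK-J1, with 6 libraries on each side. In SAS, 6 of the 10 members fell and 1 rose, where 20.2% of the 23416 genes tested were called (10.5% lower and 9.65% higher), and the median log2 fold change was -0.62 beside -0.01 over all genes. The same number of members was called with the replicate block, where 37% of genes were, and without the 2 libraries that held Cal33 transcripts, where 12.7% were. In Cal33, 5 fell and none rose, where 21.5% of 24351 genes were called (10.2% lower and 11.3% higher), with medians of -0.43 and 0.02. NOTCH1, NOTCH3 and NRARP fell in both. The irradiated libraries of 5 members in SAS and 4 in Cal33 all lay below the unirradiated ones, as did those of 5.78% and 6.33% of genes. The RNA is from whole cultures, in which fewer cells of a kind and less RNA per cell cannot be told apart.

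Of the receptors, NOTCH3 fell most and NOTCH2 did not fall. NOTCH3 had 226 CPM in the lowest, 409 in the median and 515 in the highest unirradiated SAS library, and 133, 190.4 and 216 in the irradiated ones. In Cal33 it had 229, 319 and 456 CPM without and 126, 184 and 207 with irradiation. The arms did not overlap in either line, and the log2 fold change was -1.10 in SAS (standard error 0.19, edgeR adjusted p = 0.00194) and -0.90 in Cal33 (standard error 0.16, adjusted p = 0.00204). NOTCH1, the receptor best studied in squamous differentiation, had 166, 191 and 253 CPM (lowest, median, highest) in unirradiated and 122, 133 and 156 in irradiated SAS cells. In Cal33 the values were 144, 158 and 249.5 without and 96.7, 114 and 146 with irradiation. NOTCH1 was apart in SAS (log2 fold change -0.51, standard error 0.08, edgeR adjusted p = 0.00131), whereas its arms overlapped in Cal33, where it was called all the same (-0.59, standard error 0.15, adjusted p = 0.0162).

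NOTCH2 went the other way. It had 138, 165 and 173 CPM (lowest, median, highest) in unirradiated and 168, 198 and 215 in irradiated SAS cells, and 122, 131 and 154 against 136, 153 and 166 in Cal33. The arms overlapped in both lines, and NOTCH2 was called higher in SAS (log2 fold change 0.26, standard error 0.08, edgeR adjusted p = 0.0289) and not in Cal33 (0.20, standard error 0.08, adjusted p = 0.09). The SAS call was lost without replicate 2 or 3 of GSK-J1 with 4 Gy, replicate 1 of GSK-J1, replicate 2 or 3 of 4 Gy, or replicate 1 of sham, with log2 fold changes of 0.22 to 0.26 and adjusted p of 0.0606 to 0.0785. As a share of the summed CPM per kb of the 3 receptors, NOTCH3 made up 60.0 ± 7.88% in SAS sham and 45.1 ± 7.85% after 4 Gy (SD, n = 3), and NOTCH2 12.5 ± 3.21% and 24.4 ± 3.71%. In Cal33, NOTCH3 had 58.0 ± 4.30% and 47.3 ± 4.81%, and NOTCH2 13.3 ± 3.51% and 23.1 ± 1.11%. The share of NOTCH1 was 27.5 ± 4.96% and 30.5 ± 4.14% in SAS, and 28.7 ± 3.66% and 29.6 ± 4.69% in Cal33. The SD ranges of the NOTCH2 shares before and after 4 Gy did not meet in either line, and those of the NOTCH1 shares did. For NOTCH3 they met in SAS and not in Cal33.

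The ligands fell together in SAS. JAG2 had 553, 630.4 and 749 CPM (lowest, median, highest) in unirradiated SAS cells and 355, 384 and 409 in irradiated ones, DLL1 had 131, 166 and 179 against 71.3, 90.3 and 114, and JAG1 had 142, 235 and 357 against 111, 115 and 152. The arms were apart for JAG2 and DLL1 and overlapped for JAG1, whose replicate 3 was low in both unirradiated groups (150.2 and 142 CPM). The log2 fold changes were -0.76 for JAG2 (standard error 0.08, edgeR adjusted p = 0.000101), -0.79 for DLL1 (standard error 0.13, adjusted p = 0.00123) and -0.94 for JAG1 (standard error 0.22, adjusted p = 0.00967). The summed CPM per kb of the ligands was 194.9 ± 2.36 in SAS sham and 108 ± 10.8 after 4 Gy (SD, n = 3), while each ligand kept its share to within the SD.

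In Cal33, none of the ligands was called. JAG2 had 168, 190.5 and 224 CPM (lowest, median, highest) without and 142, 158 and 198 with irradiation, DLL1 67.4, 86.6 and 102 against 67.9, 76.8 and 100.1, and JAG1 252, 285 and 397 against 266, 281 and 291. The arms of all 3 overlapped. The log2 fold changes were -0.26 for JAG2 (95% confidence interval -0.47 to -0.05, edgeR adjusted p = 0.0789), -0.07 for DLL1 (-0.34 to 0.21, adjusted p = 0.74) and -0.14 for JAG1 (-0.39 to 0.11, adjusted p = 0.423). JAG2 was called lower without replicate 3 of GSK-J1 with 4 Gy (-0.34, adjusted p = 0.0178).

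The effect of 4 Gy itself was compared between the lines in a fit of all 24 libraries, in which a positive value means a weaker fall in Cal33. The difference was 0.70 for DLL1 (log2 scale, standard error 0.19, edgeR adjusted p = 0.0387), 0.48 for JAG2 (standard error 0.13, adjusted p = 0.0397) and 0.78 for JAG1 (standard error 0.26, adjusted p = 0.0964). So 2 of the 10 members were called, both as higher, where 4.9% of 24597 genes were called and 2.81% as higher. Both calls were close to the threshold: leaving out 1 library ended that of DLL1 for 15 of the 24 libraries and that of JAG2 for 15, with values of 0.61 to 0.78 for DLL1 and 0.40 to 0.54 for JAG2 over all alternatives. Without the 2 SAS libraries that held Cal33 transcripts, JAG2 was not called (0.50, adjusted p = 0.0676), where 2.77% of genes were. JAG1 was called by edgeR with the replicate block (0.76, adjusted p = 0.0349), where 7.9% of genes were, and with no filter (0.79, adjusted p = 0.0198). That block shared the effect of a replicate number between the lines, and the numbers did not pair Cal33 sham with the other groups. The blocked call is therefore weak ground for a difference. JAG1 was also called without SAS GSK-J1 replicate 3 (0.89, adjusted p = 0.0408) and without SAS sham replicate 3 (0.92, adjusted p = 0.0281). For the receptors and for NRARP no difference between the lines was detected, with 95% confidence intervals of -0.49 to 0.29 for NOTCH1, -0.33 to 0.15 for NOTCH2, -0.38 to 0.74 for NOTCH3 and -0.45 to 0.06 for NRARP.

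**Figure D3:**
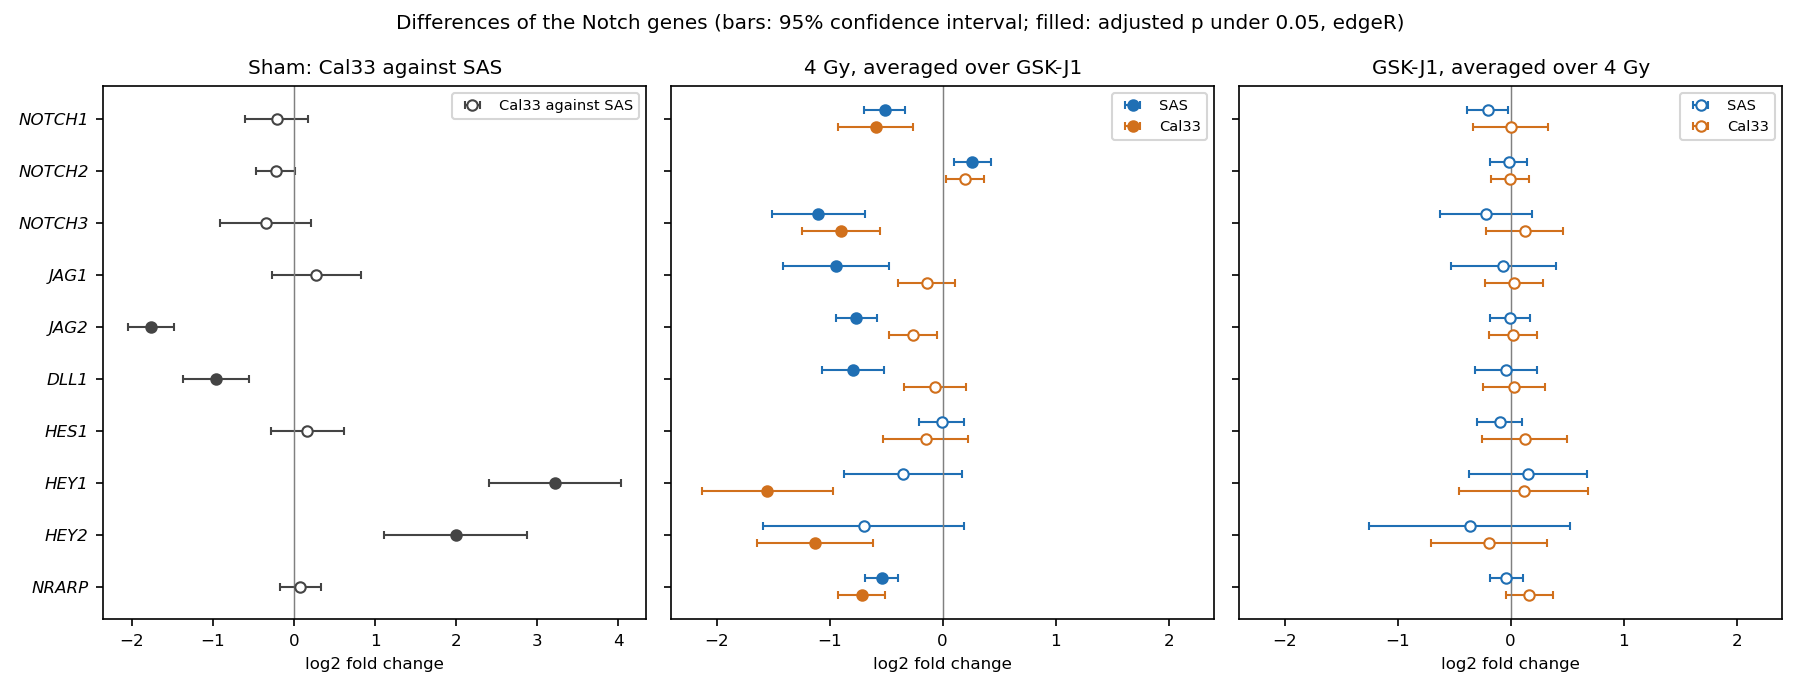
Log2 fold changes (horizontal axes) of the 10 Notch genes for Cal33 against SAS in sham (left), 4 Gy averaged over GSK-J1 (middle) and GSK-J1 averaged over 4 Gy (right). Bars are 95% confidence intervals and filled points have an edgeR adjusted p under 0.05. With 4 Gy, 6 genes are lower in SAS and 5 in Cal33, NOTCH2 lies right of 0 in both lines, and with GSK-J1 no point is filled.

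The target genes did not move as a block. NRARP had 76.7, 85.7 and 92.0 CPM (lowest, median, highest) in unirradiated and 53.9, 59.5 and 63.4 in irradiated SAS cells, and 77.9, 91.1 and 110.2 against 43.7, 57.3 and 67.1 in Cal33. The arms were apart in both lines, with log2 fold changes of -0.54 (standard error 0.07, edgeR adjusted p = 0.000229) and -0.72 (standard error 0.10, adjusted p = 0.000422). HES1 had 50.8, 59.5 and 70.4 CPM without and 53.0, 59.3 and 72.8 with irradiation in SAS, and 49.7, 76.9 and 87.6 against 49.3, 57.7 and 85.4 in Cal33. Its arms overlapped in both lines, and it was not called (SAS -0.01, 95% confidence interval -0.21 to 0.19; Cal33 -0.15, -0.52 to 0.22). In SAS this interval leaves out a fall of the size NRARP had.

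HEY1 and HEY2 fell in Cal33, where they were better expressed. HEY1 had 2.86, 4.50 and 7.73 CPM (lowest, median, highest) in unirradiated and 1.37, 1.74 and 2.01 in irradiated Cal33 cells, a 2.93-fold fall without overlap (log2 fold change -1.55, standard error 0.27, edgeR adjusted p = 0.00179). HEY2 had 0.512, 0.619 and 0.821 against 0.184, 0.286 and 0.403 CPM, also apart, from 41 to 62 and 14 to 35 counts (-1.13, standard error 0.24, adjusted p = 0.00556). In SAS, HEY1 had 0.388, 0.455 and 0.885 CPM without and 0.288, 0.423 and 0.535 with irradiation, and HEY2 had 7 to 21 and 3 to 13 counts. Their arms overlapped there, and they were not called (HEY1 -0.35, 95% confidence interval -0.88 to 0.17; HEY2 -0.70, -1.58 to 0.19), so at 3 to 21 counts a fall of HEY2 as large as in Cal33 was not detectable. The difference between the lines was -1.22 for HEY1 (standard error 0.38, edgeR adjusted p = 0.0697) and -0.45 for HEY2 (standard error 0.47, adjusted p = 0.694). With all libraries kept, HEY1 was called for this difference by DESeq2 (-1.21, adjusted p = 0.0239) and by edgeR with no filter (-1.21, adjusted p = 0.0335). By edgeR, HEY1 was also called without the 2 SAS libraries that held Cal33 transcripts (-1.49, adjusted p = 0.0436) and without Cal33 GSK-J1 replicate 1 (-1.36, adjusted p = 0.0289). The same held without Cal33 sham replicate 3 (-1.34, adjusted p = 0.0396) and without SAS GSK-J1 replicate 1 (-1.48, adjusted p = 0.0271).

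Each arm of the design was also compared on its own. For 4 Gy against sham in SAS, DLL1, NOTCH1, NRARP, JAG2 and NOTCH3 fell, 5 of 10, where 7.08% of genes were called and 3.45% called lower. NOTCH3 had 483, 515 and 274 CPM in sham and 216, 205 and 145 after 4 Gy, so that even the low replicate 3 of sham lay above all irradiated libraries (log2 fold change -1.17, standard error 0.27, edgeR adjusted p = 0.0224). Its call was lost without replicate 2 or 3 of 4 Gy or replicate 1 or 2 of sham (adjusted p of 0.0613 to 0.1), that of DLL1 without replicate 2 or 3 of 4 Gy (0.0739 and 0.0778) and that of NOTCH1 without replicate 1 of 4 Gy (0.0546). JAG1 missed the threshold (-1.03, standard error 0.31, edgeR adjusted p = 0.0642). It was called without SAS sham replicate 3 (-1.29, adjusted p = 0.0179) and without the 2 libraries that held Cal33 transcripts (-1.03, adjusted p = 0.0497), where 5.57% of genes were. With all libraries kept, DESeq2 (-1.01, adjusted p = 0.0104) and edgeR with no filter (-1.02, adjusted p = 0.0103) called JAG1 as well. The labels do not say what replicate numbers share, and the numbers were taken to pair the SAS libraries from correlations in these data. With a replicate block on this basis, 24.5% of genes were called. JAG1 (-0.96, edgeR adjusted p = 0.000362) and NOTCH2, as higher (0.26, adjusted p = 0.00361), then joined the 5. The groups of 6 members did not overlap, where those of 26.7% of genes did not.

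For 4 Gy against sham in Cal33, HEY2, HEY1, NRARP and NOTCH3 fell, 4 of 10, where 6.27% of genes were called and 2.81% called lower. NRARP had 110.2, 77.9 and 90.6 CPM in sham and 56.1, 55.0 and 43.7 after 4 Gy, without overlap (-0.83 on the log2 scale, standard error 0.14, edgeR adjusted p = 0.00633). It was called in all 14 alternatives. The groups of 6 members did not overlap, where those of 25.9% of genes did not. The HEY2 call was lost without any 1 of the 6 libraries (adjusted p of 0.0658 to 0.145), that of HEY1 without any 1 of the 4 Gy libraries or sham replicate 1 (0.0673 to 0.123) and that of NOTCH3 without 4 Gy replicate 3 or sham replicate 1 (0.101 and 0.0947). Sham replicate 1 was the highest library of this group in every member but NOTCH2. NOTCH1, not called by the planned test, was called lower by DESeq2 (-0.67, adjusted p = 0.0452) and by edgeR with no filter (-0.70, adjusted p = 0.0208).

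Members called in the presence of GSK-J1 again fell. For GSK-J1 with 4 Gy against GSK-J1 in SAS, DLL1, NRARP, JAG2 and NOTCH3 were called lower, 4 of 10, where 4.42% of genes were called and 1.99% called lower, with log2 fold changes of -0.76, -0.49, -0.72 and -1.03 (edgeR adjusted p of 0.0349, 0.0137, 0.0067 and 0.05). NOTCH1 was just outside (-0.45, adjusted p = 0.0504). The groups of 5 members did not overlap, where those of 26% of genes did not. Leaving out 1 library ended the calls of NOTCH3 for 5 of the 6 libraries (adjusted p of 0.0743 to 0.183), of DLL1 for replicates 2 and 3 of the combination and 1 and 3 of GSK-J1 (0.0741 to 0.137), and of NRARP for replicate 2 of the combination and 1 of GSK-J1 (0.0742 and 0.0665). None of the 10 was called without the 2 SAS libraries that held Cal33 transcripts, where 0.414% of genes were, and the values were then -0.89 for DLL1, -0.42 for NRARP, -0.79 for JAG2 and -0.99 for NOTCH3. With the replicate block, 7 were called, where 21.5% of genes were: these 4, NOTCH1 and JAG1 as lower and NOTCH2 as higher. In Cal33, HEY1 (-1.51, adjusted p = 0.0381) and NRARP (-0.60, adjusted p = 0.0283) were called lower, where 5.11% of genes were called and 2.07% called lower. The groups of 4 members did not overlap, where those of 26.1% of genes did not. The call of HEY1 was lost without any 1 replicate of GSK-J1 with 4 Gy or replicate 2 or 3 of GSK-J1 (adjusted p of 0.0738 to 0.178), and that of NRARP without replicate 1 or 3 of the combination or any 1 of GSK-J1 (0.0558 to 0.144). In the 6 libraries with a replicate block, NOTCH1, NOTCH3 and HEY2 were called lower as well, where 18.4% of genes were called.

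For GSK-J1 itself, none of the 10 members was called in either line by the planned test. Against sham, the log2 fold changes were -0.56 to 0.10 in SAS and -0.30 to 0.11 in Cal33, and against 4 Gy alone they were -0.16 to 0.20 and -0.07 to 0.28, with edgeR adjusted p of 1 for every member. At an unadjusted p under 0.05 by edgeR there was 1 member, NOTCH1 in SAS, whose log2 fold change was -0.27 against sham (95% confidence interval -0.52 to -0.01) and -0.20 averaged over 4 Gy (-0.38 to -0.02). NOTCH1 had 185, 253 and 196 CPM in sham and 166, 196 and 167 with GSK-J1 there, overlapping. Against sham, no member's groups were apart in either line, where those of 5.15% of genes in SAS and 3.54% in Cal33 were. Against 4 Gy, none was apart in SAS, where 9.82% of genes were, and NRARP was in Cal33, where 4.38% were. In these 4 comparisons edgeR called 0 genes in all, with 215 to 486 of 23416 or 24351 genes below 0.05 before adjustment. This is less than the fraction of 0.05 that falls there without any effect, so the planned test was conservative here. The lack of calls does not show that GSK-J1 had no effect. DESeq2 found 3 genes in SAS against sham, none of them a member. With the replicate block on all 12 SAS libraries, 0.0427% of genes were called against sham and 0.201% for the effect averaged over 4 Gy, again with no member. The interval of the effect averaged over 4 Gy was narrowest for NRARP in SAS (-0.18 to 0.11) and for NOTCH2 in Cal33 (-0.18 to 0.16), and widest for HEY2 in SAS (-1.25 to 0.53). No interaction of GSK-J1 and 4 Gy was called for a member (log2 values of -0.11 to 0.40 in SAS and -0.05 to 0.24 in Cal33, adjusted p of 1 throughout), and no difference between the lines in the GSK-J1 effect (-0.05 to 0.33, adjusted p of 1).

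Where replicate numbers were taken to pair the groups, the blocked test of the 6 libraries compared found small shifts. In SAS against sham it called NOTCH1 (log2 fold change -0.25, edgeR adjusted p = 0.00454) and NOTCH3 (-0.28, adjusted p = 0.00129) lower, where 2.59% of genes were called. NOTCH3 was lower with GSK-J1 in each pair, at 425 against 483, 394 against 515 and 226 against 274 CPM. In SAS against 4 Gy it called HES1 (-0.15, adjusted p = 0.0233), NOTCH1 (-0.14, adjusted p = 0.0192) and NOTCH3 (-0.14, adjusted p = 0.0104) lower, where 7.98% of genes were called, while the block on all 12 SAS libraries called 0 of 23416 genes there. In Cal33 against 4 Gy it called NRARP (0.28, adjusted p = 0.0147) and NOTCH3 (0.24, adjusted p = 0.0378) higher, where 0.515% were. NRARP had 56.1, 55.0 and 43.7 CPM after 4 Gy and 58.6, 67.1 and 61.9 with GSK-J1 added, the highest of the former below the lowest of the latter, and NOTCH3 had 191, 173 and 126 against 207, 188 and 179. Each of these fits rests on 3 pairs.

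Of 58 further genes of the pathway or linked to it, listed by role, 56 were tested in each line. With 4 Gy averaged over GSK-J1, 5 rose and 9 fell in SAS, and 9 rose and 8 fell in Cal33, where 20.2% and 21.5% of all genes tested were called. Their median log2 fold change was -0.06 in SAS and 0.04 in Cal33, beside -0.01 and 0.02 over all genes. Among other ligands, DLK2, a Delta-like protein without the receptor-activating domain, fell in both lines, from 35.9 to 49.4 CPM down to 18.7 to 25.8 in SAS (log2 fold change -0.88, edgeR adjusted p = 8.96e-05) and from 46.8 to 62.8 down to 27.8 to 34.3 in Cal33 (-0.71, adjusted p = 0.000352). DLL4, the ligand best known from sprouting vessels, rose from a low level, 6 to 19 counts to 21 to 51 in SAS (1.85, adjusted p = 0.00024) and 0 to 11 to 11 to 68 in Cal33 (2.41, adjusted p = 0.0123). NOTCH4 was tested and not called, at 13 to 63 counts in all libraries.

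Of the other HES and HEY genes, HEYL, a further member of the HEY family, fell in SAS (log2 fold change -1.34, edgeR adjusted p = 0.00172) and Cal33 (-0.97, adjusted p = 0.0166), at 43 to 78 counts without and 12 to 42 with irradiation. HES2 fell in Cal33 (-0.86, adjusted p = 0.00742). HES4 fell in SAS (-0.67, adjusted p = 0.00106) and rose in Cal33 (0.67, adjusted p = 0.0369), the latter lost without any 1 of 8 of the 12 libraries. HES5 was called lower in Cal33 (-1.33, adjusted p = 0.0411) on 1 to 8 counts and in 3 of 17 alternatives. Among the coactivators, MAML3 fell in SAS (-1.08, adjusted p = 0.0115) and Cal33 (-1.18, adjusted p = 0.0044), MAML1 fell in SAS (-0.22, adjusted p = 0.00686) and MAML2 in Cal33 (-0.45, adjusted p = 0.00125). RBPJ itself rose in SAS (0.30, adjusted p = 0.00459), from 29.5 to 36.3 CPM up to 36.4 to 43.2.

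Of the 8 genes of the ADAM proteases and gamma-secretase, NCSTN, a gamma-secretase subunit, was called in SAS (-0.20, edgeR adjusted p = 0.0259, in 13 of 19 alternatives and not without the 2 SAS libraries that held Cal33 transcripts) and none in Cal33. Of the glycosylation genes, LFNG, which encodes a sugar transferase that changes the ligand preference of the receptors, was called lower in SAS (-0.42, adjusted p = 0.033, in 11 of 19 alternatives). Among the ubiquitin ligases of the ligands, NEURL rose in both lines, from 115 to 166 CPM up to 171 to 206 in SAS (0.38, adjusted p = 0.00753) and from 7 to 32 counts up to 52 to 255 in Cal33 (2.86, adjusted p = 0.00143), while NEURL1B was called lower in Cal33 (-0.38, adjusted p = 0.0498, in 6 of 18 alternatives). Of the genes for inhibitors and turnover, DTX4, a Deltex ubiquitin ligase, fell in SAS from 106 to 142 CPM down to 64.7 to 81.9 (-0.76, adjusted p = 2.11e-05). DTX3L, a related ligase, rose in Cal33 from 134 to 183 up to 237 to 310.0 CPM (0.75, adjusted p = 0.000447). AAK1, a kinase of endocytosis, was called higher in Cal33 at the threshold (0.24, adjusted p = 0.0499, in 5 of 18 alternatives), and DTX1 on at most 4 counts per library, too few for a fold.

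Of the Notch-linked genes of squamous cells, CDKN1A, the cell cycle inhibitor p21 that p53 also induces, rose in SAS (0.49, edgeR adjusted p = 0.00117) and Cal33 (0.67, adjusted p = 0.0408, in 10 of 18 alternatives), as did CCND1 (0.24, adjusted p = 0.0465, in 9 of 19, and 0.27, adjusted p = 0.0116). The CCND1 call in SAS was also lost without the 2 SAS libraries that held Cal33 transcripts. TP63, a master regulator of squamous epithelium that Notch opposes, fell in SAS (-0.40, adjusted p = 0.0101). MYC rose in Cal33 (0.64, adjusted p = 0.00646). KRT13, a keratin of differentiating mucosa, fell in Cal33 from 4135 to 6913 CPM down to 1247 to 2254 (-1.53, adjusted p = 0.000292). The early differentiation genes KRT1, KRT10 and IVL were not called in either line. The difference between the lines in the effect of 4 Gy was called for 7 of the 56 genes: HES4, NEURL, NCSTN, MAML1, DTX3L and DTX4 higher in Cal33 and MAML2 lower, where 4.9% of all genes were called. Without the 2 SAS libraries that held Cal33 transcripts, that of MAML1 was lost (adjusted p = 0.0546). KDM6A, a target of GSK-J1, rose with 4 Gy in Cal33 (0.72, adjusted p = 0.00154) and was not called in SAS (0.07, adjusted p = 0.575), a difference of 0.63 between the lines (adjusted p = 0.0176). KDM6B was not called in either line. In sham cells, KDM6A was lower in Cal33 than in SAS, with log2 fold changes of -1.31 to -1.03 over 14 alternatives, all of which called it.

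**Figure D4:**
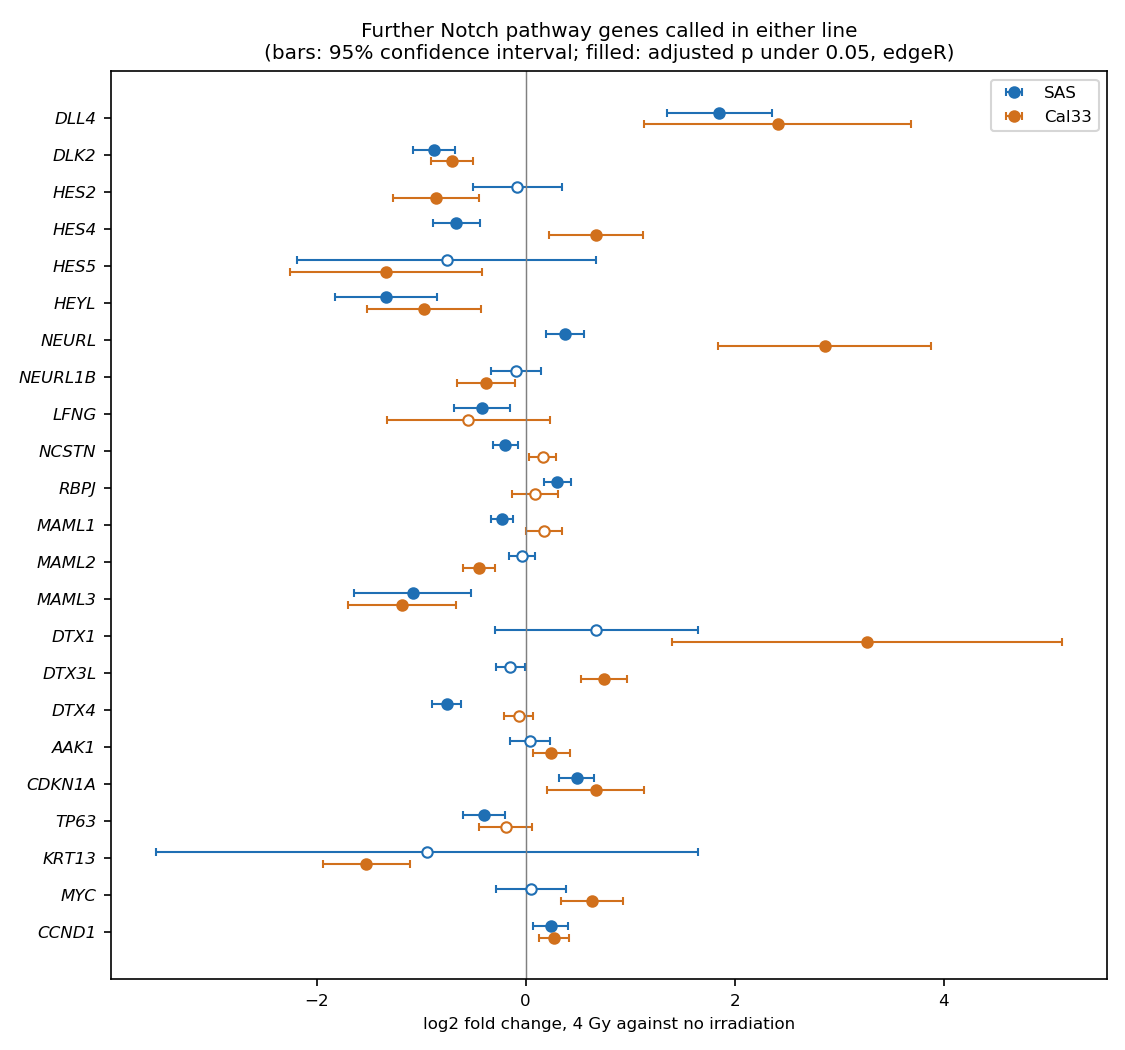
Log2 fold change for 4 Gy against no irradiation, averaged over GSK-J1 (horizontal axis), of the 23 further Notch pathway genes called in SAS (blue) or Cal33 (orange). Bars are 95% confidence intervals and filled points have an edgeR adjusted p under 0.05. DLK2, HEYL and MAML3 are filled left of 0 in both lines and DLL4, NEURL, CDKN1A and CCND1 right of 0; the wide bar of DTX1 in Cal33 rests on at most 4 counts per library.

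In sham cells, 31 of these 56 genes differed between the lines, where 54.5% of all genes tested did, 12 higher and 19 lower in Cal33, at a median log2 fold change of -0.18. NEURL had 132 ± 15.4 CPM in SAS and 0.192 ± 0.0875 in Cal33 (SD, n = 3, log2 fold change -9.36, edgeR adjusted p = 7.96e-12), and NEURL1B 9.52 ± 1.95 and 33.8 ± 1.68 (1.83, adjusted p = 1.96e-08). Of the coactivators, MAML2 (-0.94, adjusted p = 7.38e-09) and MAML1 (-0.69, adjusted p = 1.05e-06) were lower in Cal33, as were DTX4 (-0.80, adjusted p = 1.5e-07), NUMB, an inhibitor of Notch (-0.60, adjusted p = 8.19e-06), DLL3 (-2.07, adjusted p = 2.67e-06) and HES7 (-3.51, adjusted p = 3.44e-06). Of the 8 genes of the RBPJ complex and its cofactors, 3 were lower and 2 higher, SPEN and CREBBP. CREBBP had log2 fold changes of 1.18 to 1.40 over the 14 alternatives. Of the 10 genes for inhibitors and turnover, 6 were lower and 2 higher, FBXW7 and DTX2. KRT13 (12.36, adjusted p = 8.46e-06) and KRT4 (7.93, adjusted p = 7.58e-06), both keratins of internal squamous lining, were higher. MYC, CCND1 and KRT1, of the same list of Notch-linked squamous genes, were lower, KRT1 in only 6 of 14 alternatives. DLK1 had at most 2 counts and HES3 at most 1.

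Of the markers of other cells, 2 of 9 tested were called with irradiation in SAS and 2 of 12 in Cal33, where 20.2% and 21.5% of all genes were. The summed level of the fibroblast and mural cell markers was 2.67 to 5.05 CPM in unirradiated and 4.28 to 7.92 in irradiated SAS cells, and 23.4 to 44.1 and 24.1 to 34.9 in Cal33. Endothelial markers summed to 7.42 to 99.0 and 15.7 to 35.9 CPM in SAS and 16.6 to 59.2 and 19.3 to 33.1 in Cal33, and leukocyte markers to 8.96 to 24.4 and 5.41 to 11.8 in SAS and 5.96 to 9.08 and 5.38 to 8.31 in Cal33. Of single markers, RGS5 (log2 fold change 1.03, edgeR adjusted p = 0.00276) and CD14 (-0.91, adjusted p = 0.0133, and 0.0528 without the 2 libraries that held Cal33 transcripts) were called in SAS, and TEK (1.48, adjusted p = 0.0152) and VWF (-1.08, adjusted p = 0.0367, in 10 of 18 alternatives) in Cal33. Of the squamous markers, KRT6A rose in SAS (1.45, adjusted p = 0.00142) and Cal33 (0.97, adjusted p = 0.00186), KRT17 fell in SAS (-0.45, adjusted p = 0.000336) and rose in Cal33 (1.38, adjusted p = 0.00466), and KRT14 (0.74, adjusted p = 0.000192) and EPCAM (0.20, adjusted p = 0.0139) rose in SAS. Their part in the Notch results was not tested.

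Across the 24 libraries, the log2 CPM of each gene was centred on the mean of its own line, and Pearson's r was computed as a description, since these points share treatments, libraries and depth. NRARP followed NOTCH3 (r = 0.881) and NOTCH1 (r = 0.83), and DLL1 followed JAG2 (r = 0.801). NOTCH2 ran against JAG1 (r = -0.762) and NOTCH3 (r = -0.643). HES1 had r of 0.016 to 0.49 with the other members that reached a mean of 50 counts, highest with DLL1. Of 14623 genes with such a mean, those most like HES1 were TRAF1 (r = 0.909), GPR157 (0.906), TINF2 (0.894), B3GAT3 (0.883) and ARHGAP24 (0.877). Those most like JAG1 were MANBA (0.914), LRIG3 (0.912), MXRA5 (0.903), RP11-54O7.3 (0.895) and PPFIBP2 (0.895).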

How the data were processed

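RNA of 24 libraries was sequenced with a stranded total RNA kit. Per the submitters' processing notes, the authors aligned to hs37d5 with STAR (2.5.3a) and used SAMtools (1.6) and Subread's featureCounts (1.5.1). The values the authors deposited are raw counts per gene, not normalized. Sense-strand counts were used (94.43 to 95.18% of the counts on either strand, median 76418470.5 per library).

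CPM were scaled by TMM in edgeR 4.0.16 (R 4.3.3). Genes averaging 1 or more counts in the libraries of a fit were tested by edgeR's quasi-likelihood test without covariates, on 12 libraries within a line and 24 across lines. The Benjamini-Hochberg threshold was 0.05 over all genes tested. Standard errors were derived from the F statistic, as the log2 fold change over its root. The procedure was tested on simulated counts. All members are named, and of each further list genes among the called ones, at most 5 by p. The members, lists and alternatives were chosen with earlier results of these data known. Correlations used log2(CPM + 0.5).

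Replicate numbers come from the labels, which do not say what they share. They were taken to pair groups where every correlation of deviations from the group means exceeded 0.1. This held in SAS (lowest r = 0.305) and among the treated groups of Cal33 (0.162), but not with Cal33 sham (r of -0.61 to 0.43). Blocked fits that hold Cal33 sham were run all the same, as alternatives. Alternatives were DESeq2 1.42.0, its size factors, 2 other filters, the block, counts on both strands, the libraries compared alone, and leaving out libraries.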

Additional observations from a re-analysis of the deposited data

Results flagged for a closer look

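The effect of 4 Gy, averaged over GSK-J1, differed between Cal33 and SAS for 2 ligands by a test of the difference itself. The difference was 0.70 on the log2 scale for DLL1 (edgeR adjusted p = 0.0387) and 0.48 for JAG2 (adjusted p = 0.0397). A positive value means a weaker fall in Cal33, where neither message was called. Without the 2 SAS libraries that held Cal33 transcripts, JAG2 was not called (0.50, adjusted p = 0.0676). Both ligands were lower in all 6 irradiated than in all 6 unirradiated SAS libraries, and the arms overlapped in Cal33. Leaving out 1 of the 24 libraries ended the call for 15 of them in each gene, with adjusted p up to 0.0797 for DLL1 and 0.0808 for JAG2. Groups of 3 samples were too small to test single samples that stand apart.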

How the results depend on the processing

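Of 3030 values of the 10 genes under the alternatives, 2891 kept their side of the threshold, 89 lost a call and 50 gained one. None that was called turned its direction, and 247 values that were not called changed sign. Most of the 3030 values are of members that the planned test did not call. The losses were most frequent for the difference between the lines in the 4 Gy effect (32). There, DLL1 was called in 16 and JAG2 in 14 of 31 alternatives. GSK-J1 with 4 Gy against GSK-J1 in SAS had 19 losses. The cause of the changes was not tested, except that leaving out a library leaves fewer samples.

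With the replicate block on the 6 libraries compared, 2 genes instead of 0 were called for GSK-J1 against sham in SAS, where 2.59% of all genes were. For GSK-J1 with 4 Gy against 4 Gy, it called 3 instead of 0 in SAS, where 7.98% of all genes were. In Cal33 it called 2 instead of 0 there, where 0.515% were. For GSK-J1 with 4 Gy against GSK-J1, it called 7 instead of 4 in SAS. In Cal33 it called 5 instead of 2, where 18.4% of all genes were called. On all 12 SAS libraries the block also gave 7 for this last comparison, where 21.5% of all genes were called. Excluding the SAS libraries with Cal33 transcripts gave 0, where 0.414% were. DESeq2 gave 4 in Cal33. For 4 Gy against sham in Cal33, the 6 libraries alone gave 2 instead of 4. For the difference between the lines in the 4 Gy effect, no filter gave 4 and counts without regard to strand 1, instead of 2. Leaving out 1 library gave 3 to 6 genes for 4 Gy against sham in SAS, 1 to 3 in Cal33, 1 to 3 for GSK-J1 with 4 Gy against GSK-J1 in SAS, 0 to 1 in Cal33, and 0 to 3 for the difference between the lines. The number called over all genes also changes with the setting. It is given below for the planned test, DESeq2 and the block on all libraries of a fit. It is not given for the 6 libraries alone, no filter, counts without regard to strand or leaving out 1 library. The same holds for the block on the 6 SAS libraries of GSK-J1 with 4 Gy against GSK-J1. Member counts under those settings cannot be set beside a share over all genes. All these member counts describe the settings and are no result about the members.

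Over all genes, the planned test, the block and DESeq2 called 1658, 5734 and 2845 for 4 Gy against sham in SAS, 1528, 2414 and 2678 in Cal33, 1036, 5029 and 2242 for GSK-J1 with 4 Gy against GSK-J1 in SAS, 1245, 2112 and 2470 in Cal33, and 1206, 1942 and 1978 for the difference between the lines. For 4 Gy averaged over GSK-J1 in SAS, the planned test called 4726, the block 8662 and the test without the libraries that held Cal33 transcripts 2965. HEY2 had 3 to 62 counts per library.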
